A study of Homo sapiens with 4 samples.

Results

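The genes described here are 35 genes of protein folding, measured by RNA sequencing in LASCPC-01 cells treated with fluoxetine or with PBS. They were chosen by gene symbol, as 21 genes of the endoplasmic reticulum (ER) and its unfolded protein response and 14 genes of the cytosolic and mitochondrial heat shock response. All 35 were listed among the 16376 genes of the expression table. All 35 also had a mean of at least 0.1 FPKM and entered the test, which covered 12663 genes.

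LASCPC-01 is a human NEPC line, that is, a line of neuroendocrine prostate cancer, made with NMYC and an activated form of AKT1. Fluoxetine is an antidepressant that blocks serotonin reuptake, and the study asked how it alters the transcriptome of NEPC cells. There were 2 libraries of cells given PBS and 2 of cells given fluoxetine, all from the same line, with a wild-type genotype label and the same day (day 3) in every title. The labels give no fluoxetine dose, though the study's text states one for the sequenced cells. The titles of the fluoxetine libraries carry the letters PP where the treatment label reads fluoxetine. The treatment time in the study's text and the library kit in its methods differ from those in the labels, and neither source says whether the 2 libraries of a group came from separate cultures. The p-values therefore measure the spread between these libraries, which may be technical.

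A protein that enters the ER is folded by chaperones of the lumen, has its disulfide bonds set by disulfide isomerases, and is sent back to the cytosol for degradation if it fails. When unfolded protein accumulates, the sensors ERN1 (IRE1) and ATF6 and the factor XBP1 raise transcription of ER chaperone genes through short promoter sequences called ER stress elements. In the cytosol, heat shock factor 1 (HSF1) does the same for HSP70, HSP90 and HSP40 genes through the heat shock element, and tumor cells commonly hold large amounts of these chaperones.

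To show which members carry these promoter sequences, the RefSeq promoter windows of GRCh38.p14, from 250 bases before to 50 bases after each transcription start, were searched on both strands. A window was found for 33 of the 35 genes, and PDIA3 and HSF1 were not matched. The ER stress element was spelled as CCAAT and CCACG with 9 bases between them. In the sites below, written 5′ to 3′ on the strand that reads CCAAT first, capitals mark the fixed bases and lower case the spacer.
HSPA5, chr9:125241391-125241409, minus strand: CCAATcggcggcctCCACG
CRELD2, chr22:49918554-49918572, minus strand: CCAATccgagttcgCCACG
XBP1, chr22:28800603-28800621, minus strand: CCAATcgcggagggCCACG
CALR, chr19:12938384-12938402, minus strand: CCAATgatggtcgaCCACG
PDIA6, chr2:10812853-10812871, minus strand: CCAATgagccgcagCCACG
CANX, chr5:179698778-179698796, plus strand: CCAATcttcacactCCACG
HSP90B1, chr12:103930216-103930234, plus strand: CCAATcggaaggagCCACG
HSP90B1, chr12:103930321-103930339, minus strand: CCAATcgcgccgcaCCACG

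These 7 genes held 9 of the 26 ER windows with the element (34.6%), against 0 of the 19 heat shock windows and 0.0769% of all 35116 RefSeq windows. A shorter form, ER stress element II, was spelled as ATTGG and CCACG with 1 base between them, and 11.5% of the ER windows held it against 0.0541% of all windows.
SDF2L1, chr22:21642114-21642124, minus strand: ATTGGtCCACG
HERPUD1, chr16:56932025-56932035, plus strand: ATTGGgCCACG
HYOU1, chr11:119057274-119057284, plus strand: ATTGGaCCACG
HYOU1, chr11:119057380-119057390, plus strand: ATTGGaCCACG

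The heat shock element was spelled as GAA, TTC and GAA with 2 bases between each. It was found in 26.3% of the heat shock windows, in 0 of the ER windows and in 0.49% of all windows.
DNAJA1, chr9:33025276-33025288, plus strand: GAActTTCcaGAA
HSPA8, chr11:123062354-123062366, minus strand: GAAagTTCcaGAA
HSPA8, chr11:123062179-123062191, plus strand: GAAccTTCcaGAA
HSP90AA1, chr14:102087120-102087132, plus strand: GAAccTTCcgGAA
HSP90AB1, chr6:44247831-44247843, minus strand: GAAgcTTCcaGAA
HSP90AB1, chr6:44247778-44247790, minus strand: GAAtcTTCcaGAA
HSPD1, chr2:197500068-197500080, minus strand: GAAagTTCtgGAA
HSPD1, chr2:197500073-197500085, plus strand: GAActTTCcaGAA

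The DNAJA1 site lay inside the transcribed part of its window, and the HSPD1 sites overlapped each other. All other members with a window had no match to these exact letters. Among them were HSPA1A, HSPA1B, DNAJB1, MANF, HSPH1, HSPB1, BAG3, DNAJB9, PDIA4 and P4HB. A match is a description of the letters and not of binding. The members were chosen as genes of the unfolded protein and heat shock responses. Their higher shares than all windows therefore go with that choice and are no test.

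Expression was deposited as FPKM, the fragments on a gene divided by gene length and by library depth, so levels can be set against each other between genes. The FPKM of each gene were whole multiples of what 1 read was worth, and the smallest read numbers that gave them were solved for all 35 members. The authors' depth came to between 32873603 and 34831389 reads per library, and 1 read on a gene of 1 kb was worth 0.0287 to 0.0304 FPKM. The members had from 96 reads (HSPA1A) to 185472 reads (HSPA8) in a library, and 29 of them had over 1000 in every library. Across libraries, the summed FPKM of KRT8, KRT18 and EPCAM, which mark epithelial cells, was 998 to 1158. Of the neuroendocrine markers, NCAM1, ENO2 and INSM1 had a mean of at least 1 FPKM, while SYP, CHGA, CHGB, SCG3 and NKX2-1 were below it. Stromal markers summed to 1.93 to 2.96 FPKM and blood cell markers to 0.0324 to 0.176 FPKM. Across genes, the departure of each log2 FPKM from its 4-library mean correlated with log2 gene length, with r = -0.285 for fluoxetine replicate 1 and r = 0.190 for PBS replicate 2, so short genes tended to be high in the former and low in the latter.

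The 35 genes together made up 2.17% and 2.31% of all FPKM in PBS replicates 1 and 2, and 2.31% and 2.29% in fluoxetine replicates 1 and 2. HSPA8, the constitutive cytosolic HSP70, was the most abundant with a mean of 2177 FPKM over the 4 libraries. HSP90AB1 and HSP90AA1, the cytosolic HSP90 genes, came next, followed by the ER member of the HSP90 family, HSP90B1 (GRP94), and by the lectin chaperone CALR (calreticulin). HSPA1A, a stress-inducible HSP70 gene, was the lowest at 1.45 FPKM. HSPA8, HSP90AB1, HSP90B1, CALR, HSPD1, P4HB and CANX each kept apart from the next of these in every library. Pooled across libraries, the values of HSP90AA1 and HSP90B1, PDIA3 and MANF, and PDIA4 and PDIA6 overlapped. Within every library, however, the first gene of each of these pairs was the higher.

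**Figure D1:**
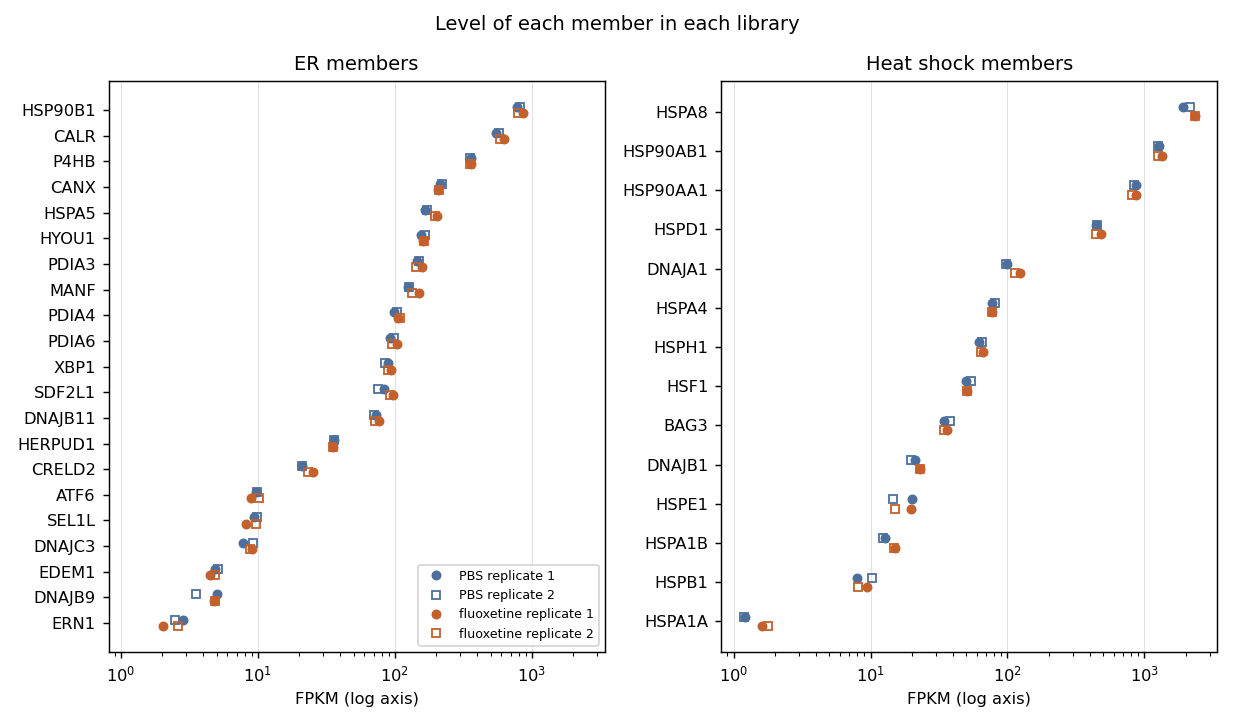
FPKM (log axis) of each of the 21 ER and 14 heat shock genes in each library, with filled circles for replicate 1 and open squares for replicate 2 of PBS (blue) and fluoxetine (orange). The genes spanned 1.45 to 2177 FPKM on average, and for most of them the 4 libraries lay close together.

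No member passed the test between fluoxetine and PBS. The test was limma on log2(FPKM + 0.1) with Benjamini-Hochberg adjustment over all 12663 genes, and its smallest adjusted p among the members was 0.329 (DNAJA1), while 30 genes in the whole table, 0.237%, passed at 0.05. At an unadjusted p under 0.05 from limma, 8 members were higher with fluoxetine, against 3.73% of all genes, and 0 members were lower, against 4.79% of all genes. The 8 were HSPA5, SDF2L1, CRELD2 and MANF of the ER and DNAJA1, DNAJB1, HSPA1A and HSPA1B of the cytosol. HSPA1A and HSPA1B share much of their sequence (71.3% of the 50-base windows of the HSPA1A transcripts). In this and the later counts they may not be separate signals. With 2 libraries in each group, an exact two-sided permutation test of 1 gene cannot give a p below 0.333. The median 95% interval of a member reached 0.17 to either side of its log2 fold change, and the highest upper bound of any member was 0.82 (HSPA1A). The RNA came from whole cultures, in which fewer cells with a transcript and less of it per cell cannot be told apart.

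Both fluoxetine libraries lay above both PBS libraries in 12 members, against 16.7% of all genes, and below them in 4 members, against 24.8% of all genes. The other 19 overlapped. The log2 fold change was above 0 for 24 of the 35 genes and for 43.5% of all genes. When each library was scaled to the same FPKM sum (TPM), these came to 15 genes and 30.9%. Without overlap under TPM, 4 ER luminal chaperones were higher and 1 lower, and 5 cytosolic heat shock chaperones were higher and 2 lower. Of the disulfide isomerases 0 were higher and 1 lower, and of the ER-associated degradation members 0 were higher and 2 lower. The remaining members overlapped, and over all 12663 genes 1366 were higher and 4139 lower. The median log2 fold change was 0.05 for the ER genes and 0.03 for the heat shock genes, compared with -0.02 for all genes tested. Under TPM the medians of the ER and heat shock genes were -0.0003 and -0.0216. The members were also more abundant, with a median of 78.1 FPKM against 7.94 FPKM for all genes tested. The shares over all genes thus come from genes of mostly lower level, and whether level bears on the differences was not tested. Without 1 library, the number of members with an unadjusted p under 0.05 in the higher direction was 2 without PBS replicate 2 and 4 without fluoxetine replicate 1.

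**Figure D2:**
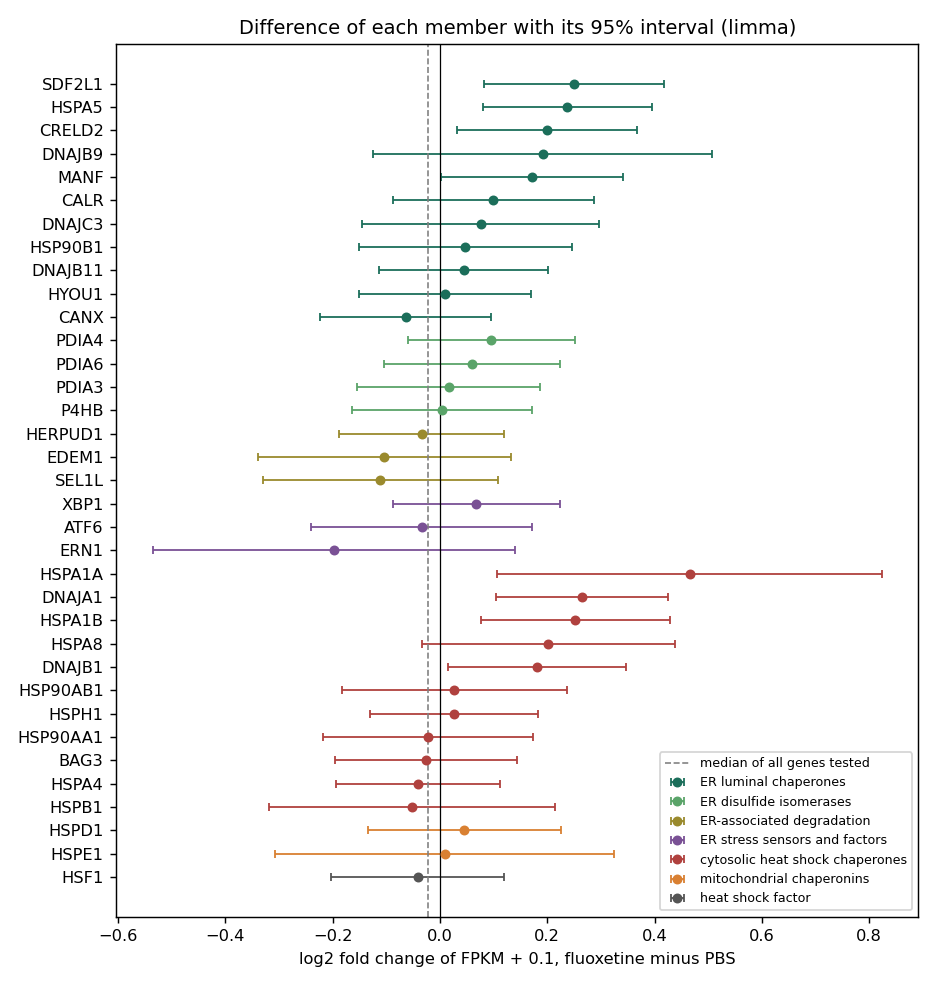
Log2 fold change of FPKM + 0.1, fluoxetine minus PBS, for each gene (point) with its 95% interval from limma (bar), colored by role, and the median of all genes tested (dashed line, -0.02). The intervals of 8 genes lie above 0, none lies below 0, and none of these 35 genes had an adjusted p under 0.329.

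The ER luminal chaperones had the highest median log2 fold change among the ER groups. Of these 11 genes, 10 had a log2 fold change above 0 (43.5% of all genes), and the group median was 0.10. In the higher direction, 4 had an unadjusted p under 0.05 from limma (3.73% of all genes). Under TPM, 7 of the 11 were above 0 (30.9% of all genes) and the median was 0.05. Without fluoxetine replicate 1 these were 8 and 0.05. HSPA5 encodes BiP, the ER member of the HSP70 family that binds unfolded chains and keeps the stress sensors silent. It lies on chromosome 9 from 125234853 to 125241330 (GENCODE 29, GRCh38), and PBS cells held 166 and 172 FPKM of it where fluoxetine-treated cells held 201 and 197 FPKM. The groups did not overlap, and the fluoxetine mean was 17.9% higher. On the log2 scale of the test the difference was 0.24 (standard error, SE, 0.07, 95% interval 0.08 to 0.40), with an adjusted p of 0.407 from limma. Of the 50-base windows of the HSPA5 transcripts, 9.54% also occur in other genes, so its value depends in part on how such reads were counted.

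SDF2L1, a partner of BiP and its HSP40 cochaperones, had 83.7 and 75.5 FPKM with PBS and 97.3 and 92.0 FPKM with fluoxetine. Its fluoxetine libraries were again both above the PBS libraries, with a log2 fold change of 0.25 (SE 0.08, limma adjusted p = 0.407). CRELD2, an ER protein induced by ER stress, had 20.9 and 21.2 FPKM with PBS and 25.1 and 23.3 FPKM with fluoxetine. The gap between its groups was wider than the spread in either, and the log2 difference was 0.20 (SE 0.08, limma adjusted p = 0.536). MANF, an ER-resident neurotrophic factor that is secreted under ER stress, had 124 and 127 FPKM with PBS and 150 and 133 FPKM with fluoxetine. Its fluoxetine replicate 1 stood apart from the other 3 libraries, and the log2 fold change of 0.17 had a 95% interval from 0.001 to 0.34. Without that library it was 0.09. The smallest lengths solved for SDF2L1 and MANF were 825 and 909 bases, and the true lengths can be multiples of these. Removal of the length trend of each library, at the smallest lengths, was an alternative added once the data had been seen. After it, their log2 fold changes were 0.15 and 0.07. That of HSPA5 was then 0.26.

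The other abundant luminal chaperones differed less between the groups. HSP90B1, which folds a restricted set of client proteins, had 780 and 815 FPKM with PBS and 862 and 787 FPKM with fluoxetine, and the groups overlapped. The ratio of HSPA5 to HSP90B1 was 0.2126 and 0.2109 with PBS and 0.2336 and 0.2498 with fluoxetine, so the share of HSPA5 relative to HSP90B1 was higher in both fluoxetine libraries. CALR, which retains glycoproteins until they are folded, had 547 and 578 FPKM with PBS and 623 and 583 FPKM with fluoxetine, without overlap, and a log2 fold change of 0.10 (SE 0.09) that was 0.05 without fluoxetine replicate 1. CANX (calnexin), its membrane-bound counterpart, had 214 and 220 FPKM with PBS and 207 and 209 FPKM with fluoxetine. Of the genes grouped here as luminal chaperones, only CANX had both fluoxetine libraries lower (log2 fold change -0.06, SE 0.07).

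HYOU1, a nucleotide exchange factor of BiP, overlapped with 155 and 167 FPKM against 161 and 163 FPKM, as did the BiP cochaperones DNAJB11 (0.04), DNAJC3 (0.08) and DNAJB9 (0.19) in their log2 fold changes. DNAJB9, a strong target of XBP1, had 5.0 and 3.56 FPKM with PBS and 4.81 and 4.86 FPKM with fluoxetine. Its PBS replicate 2 alone was low, at 298 reads against 396 to 408 in the other libraries, and without that library the log2 fold change was -0.05. The coefficient of variation of the PBS libraries was 23.8%, compared with 5.79% from counting error.

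**Figure D3:**
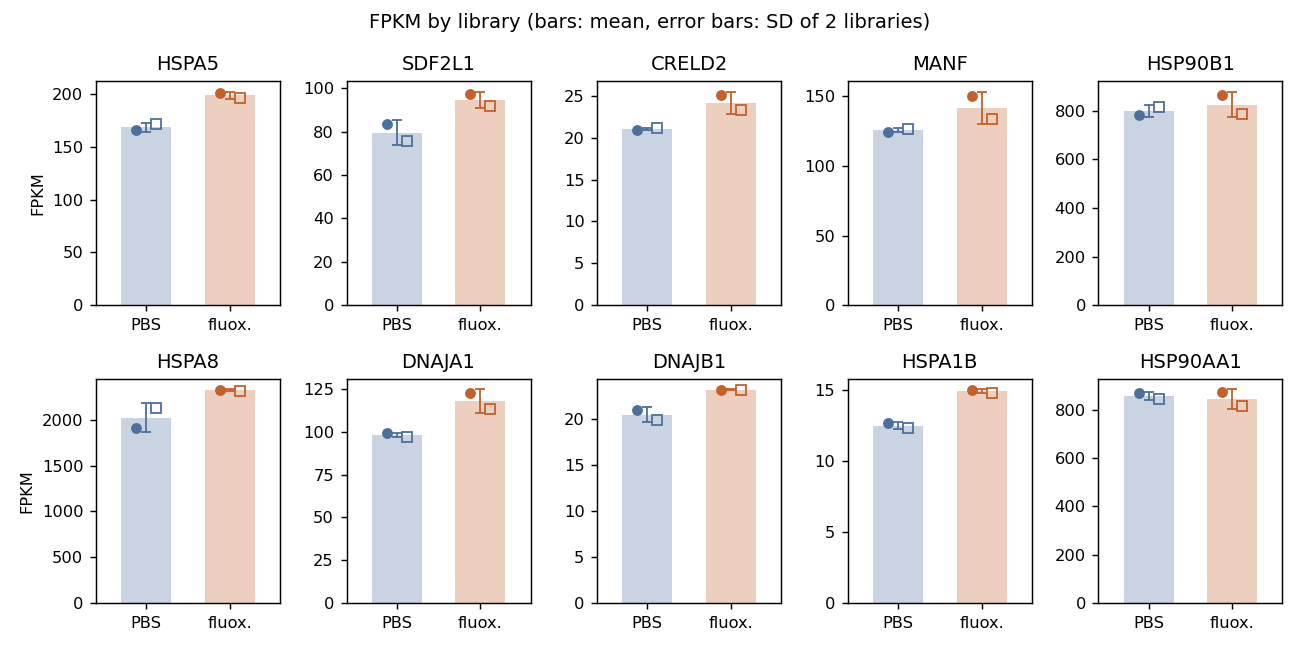
FPKM of 10 genes by library (filled circle, replicate 1 and open square, replicate 2), with the group mean as a bar and the SD of the 2 libraries as an error bar, on axes that start at 0. In HSPA5, SDF2L1, CRELD2, MANF, HSPA8, DNAJA1, DNAJB1 and HSPA1B both fluoxetine libraries lie above both PBS libraries, and in HSP90B1 and HSP90AA1 the groups overlap.

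The disulfide isomerases, which form and rearrange disulfide bonds, lay near 0 with log2 fold changes of 0.00 (P4HB), 0.02 (PDIA3), 0.06 (PDIA6) and 0.10 (PDIA4). PDIA4 was the only one of the 4 without overlap, at 97.8 and 103 FPKM with PBS and 106 and 109 FPKM with fluoxetine. P4HB, the most abundant, had 361 and 352 FPKM with PBS and 359 and 356 FPKM with fluoxetine. The 95% interval of its log2 fold change was -0.16 to 0.17. PDIA3 shared 15.3% of the 50-base windows of its transcripts with other genes, mostly its processed pseudogene PDIA3P1, and its value depends on how such reads were counted.

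The 3 members of ER-associated degradation had values below 0, and none passed the test. HERPUD1, a membrane protein of the degradation complex, had 36.1 FPKM in both PBS libraries and 35.4 and 35.1 FPKM with fluoxetine, a difference of -0.03 on the log2 scale. EDEM1, which routes misfolded glycoproteins to degradation, had 4.90 and 5.11 FPKM with PBS and 4.47 and 4.84 FPKM with fluoxetine (log2 fold change -0.10, SE 0.11). SEL1L, the adaptor of the HRD1 ubiquitin ligase, had 9.36 and 9.84 FPKM with PBS and 8.18 and 9.62 FPKM with fluoxetine, and its groups overlapped. The values of EDEM1 and HERPUD1 did not overlap, but each difference was smaller than its SE.

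Among the sensors and factors, XBP1 had 88.7 and 85.3 FPKM with PBS and 93.5 and 88.8 FPKM with fluoxetine, for a log2 fold change of 0.07 (SE 0.07). ERN1, which splices the XBP1 mRNA, had 2.86 and 2.48 FPKM with PBS and 2.03 and 2.62 FPKM with fluoxetine. Its fluoxetine replicate 1 was the lowest of the 4, the groups overlapped, and the log2 fold change of -0.20 had a 95% interval from -0.54 to 0.14 and was -0.02 without that library. ATF6 had 9.75 and 9.82 FPKM with PBS and 8.95 and 10.2 FPKM with fluoxetine and also overlapped. These values are of whole mRNA per gene and do not show the splicing of XBP1 or the cleavage of ATF6, by which these factors become active.

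In the cytosol, the HSP40 genes DNAJA1 and DNAJB1 and the HSP70 genes HSPA1A, HSPA1B and HSPA8 were higher with fluoxetine without overlap, and the HSP90 genes overlapped between the groups. DNAJA1, an HSP40 cochaperone that passes clients to HSP70, lies on chromosome 9 from 33025211 to 33039907. It had 99.0 and 97.1 FPKM with PBS and 122.7 and 113 FPKM with fluoxetine, with a mean that was 20.2% higher. It had the smallest p of all members, with a log2 fold change of 0.26 (SE 0.07, limma adjusted p = 0.329). DNAJB1, a stress-inducible HSP40 gene, had 21.0 and 19.8 FPKM with PBS and 23.2 and 23.1 FPKM with fluoxetine. The log2 fold change was 0.18 (SE 0.08, limma adjusted p = 0.552), and both fluoxetine libraries lay above the PBS libraries.

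HSPA1A and HSPA1B encode nearly the same stress-inducible HSP70 and lie close together on chromosome 6, from 31815464 to 31817946 and from 31827735 to 31830255. HSPA1A had 1.22 and 1.19 FPKM with PBS and 1.62 and 1.78 FPKM with fluoxetine, from 96 to 149 reads. HSPA1B had 12.7 and 12.3 FPKM with PBS and 15.0 and 14.8 FPKM with fluoxetine. Their log2 fold changes were 0.47 (SE 0.16) and 0.25 (SE 0.08), with adjusted p-values of 0.511 and 0.442 from limma. The split between them is uncertain, since 71.3% of the 50-base windows of HSPA1A also occur in HSPA1B. In addition, 36.5% of the exon bases of HSPA1B lie in exons of AL671762.1 on the same strand. Added together, HSPA1A and HSPA1B received 1146 and 1175 reads in PBS cells against 1449 and 1447 in fluoxetine-treated cells. In FPKM these were 13.9 and 13.5 against 16.6 in both fluoxetine libraries, a ratio of the means of 1.21.

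HSPA8 had 1915 and 2137 FPKM with PBS and 2333 and 2321 FPKM with fluoxetine. The groups did not overlap, but the PBS libraries were further apart than the higher of them was from the fluoxetine libraries, and the log2 fold change was 0.20 (SE 0.11, limma adjusted p = 0.613). Without PBS replicate 1 it was 0.12. Part of the HSPA8 transcript, 8.23% of its windows, recurs in other genes. HSPA4 and HSPH1, exchange factors for HSP70, had log2 fold changes of -0.04 and 0.03. HSPA4 had 77.3 and 81.2 FPKM with PBS and 77.0 FPKM in both fluoxetine libraries, so that its values were lower without overlap by less than the distance between its PBS libraries.

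HSP90AA1, the stress-inducible cytosolic HSP90 gene, had 869 and 844 FPKM with PBS and 872 and 816 FPKM with fluoxetine. HSP90AB1, the constitutive gene, had 1278 and 1265 FPKM with PBS and 1345 and 1247 FPKM with fluoxetine. Summed, they had 2147 and 2109 FPKM against 2217 and 2062 FPKM, a ratio of 1.01 with overlap. The ratio of HSPA8 to HSP90AB1 was 1.498 and 1.69 with PBS and 1.735 and 1.862 with fluoxetine. HSP90AA1 and HSP90AB1 shared 11.3% and 16.6% of their windows with other genes, for the most part their own pseudogenes.

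The small heat shock protein HSPB1, the HSP70 cochaperone BAG3 and the factor HSF1 overlapped as well. HSPB1 had 8.03 and 10.2 FPKM with PBS and 9.47 and 8.05 FPKM with fluoxetine, from 205 to 276 reads. BAG3 had 34.1 and 37.8 FPKM with PBS and 36.0 and 34.6 FPKM with fluoxetine, and HSF1 had 49.9 and 54.4 FPKM with PBS and 50.8 and 50.4 FPKM with fluoxetine. HSPB1, DNAJB1 and HSPA1B, which are among the targets of HSF1, thus had log2 fold changes of -0.05, 0.18 and 0.25. Those of all 14 heat shock members ran from -0.05 to 0.47, with a median of 0.03.

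The mitochondrial chaperonin genes HSPD1 (HSP60) and HSPE1 (HSP10) lie head to head on chromosome 2. HSPD1 had 444 and 451 FPKM with PBS and 480 and 444 FPKM with fluoxetine. HSPE1 had 20.1 and 14.6 FPKM with PBS and 19.8 and 15.1 FPKM with fluoxetine. Replicate 1 was high and replicate 2 low for HSPE1 in both groups, and its coefficient of variation within a group, 22.3% and 19.1%, was above the 5.94% of counting error. The level of HSPD1 was 22.1 to 30.9 times that of HSPE1, although the gene products work as a complex. HSPD1 and HSPE1 shared 13.2% and 11.7% of their windows with other genes. The exons of HSPE1 overlap those of the readthrough gene HSPE1-MOB4 over 9.71% of their bases and those of HSPD1, on the other strand, over 14.2%, and the solved length of HSPE1 was 557 bases, so its low value is uncertain.

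To set the members among other genes of the same pathways, 164 further genes in 6 lists were examined, of which 156 were tested. None passed the adjusted test, 8 had an unadjusted p under 0.05 in the higher direction (3.73% of all genes) and 5 in the lower (4.79% of all genes), and the median log2 fold change was 0.01. The 16 genes of the TRiC chaperonin and its partner prefoldin, which fold actin and tubulin, had the highest list median at 0.06, with 14 above 0 (43.5% of all genes), 6 higher without overlap (16.7%) and 0 lower (24.8%). Their median was 0.0083 under TPM, with 8 above 0, and -0.0018 without fluoxetine replicate 1, also with 8 above 0. In this list PFDN5 had 152 and 147 FPKM with PBS and 176 and 168 FPKM with fluoxetine, and the log2 fold changes of PFDN5 and PFDN6 were 0.20 and 0.16 (limma adjusted p = 0.514 and 0.557). Their smallest solved lengths were 596 and 597 bases, and the true lengths can be multiples of these. With the length trend removed at the smallest lengths, the values were 0.08 and 0.04. The 19 other ER stress sensors and signalling genes had the lowest median, -0.06, with 2 higher (16.7% of all genes) and 7 lower (24.8%) without overlap. The median level was 158 FPKM in the TRiC and prefoldin list, 9.08 FPKM in the sensors and signalling list and 7.94 FPKM over all genes tested.

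CHAC1, a glutathione-degrading enzyme downstream of ATF4, had 6.11 and 6.01 FPKM with PBS and 4.96 and 4.16 FPKM with fluoxetine, for a log2 fold change of -0.41 (SE 0.11, limma adjusted p = 0.329). ATF3, a transcription factor of the same response, had 3.69 and 4.11 FPKM with PBS and 3.09 and 3.196 FPKM with fluoxetine (-0.30, SE 0.12, limma adjusted p = 0.538). Both lay lower with fluoxetine without overlap. ATF4 itself overlapped between the groups, with a log2 fold change of 0.0048, as did PPP1R15A with 0.05. DDIT3 and TRIB3 were lower without overlap, at -0.21 and -0.09.

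Among the 42 other ER folding genes tested, FKBP9, a prolyl isomerase of the ER, came closest to the threshold. It had 12.1 and 10.8 FPKM with PBS and 7.92 and 8.17 FPKM with fluoxetine, for a log2 fold change of -0.50 (SE 0.09, limma adjusted p = 0.0587). Over the alternatives its adjusted p from limma ran from 0.000693 (voom on the solved reads) to 0.65 (no filter on low values). SDF2, the paralog of SDF2L1, had 13.1 and 10.8 FPKM with PBS and 16.3 and 14.7 FPKM with fluoxetine (0.37, SE 0.10, limma adjusted p = 0.329), and its log2 fold change was 0.24 without PBS replicate 2.

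Of the 26 other degradation genes, the selenoproteins SELENOK and SELENOS, both partners of the ER degradation machinery, had log2 fold changes of 0.38 and 0.30 without overlap (limma adjusted p = 0.264 and 0.412). SELENOK had 8.94 and 7.78 FPKM with PBS and 10.8 and 11.05 FPKM with fluoxetine. Among the 36 other cytosolic chaperones tested, HSPA14 had a log2 fold change of 0.32 and BAG2 of -0.25 (limma adjusted p = 0.497 and 0.538), and that of HSPA14 was 0.16 without fluoxetine replicate 1 and 0.47 without replicate 2. The 17 other mitochondrial chaperones and proteases had a median of -0.0014, and their named genes HTRA2 and GRPEL2 had 0.18 and -0.15, with 0.09 for HTRA2 without fluoxetine replicate 1.

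**Figure D4:**
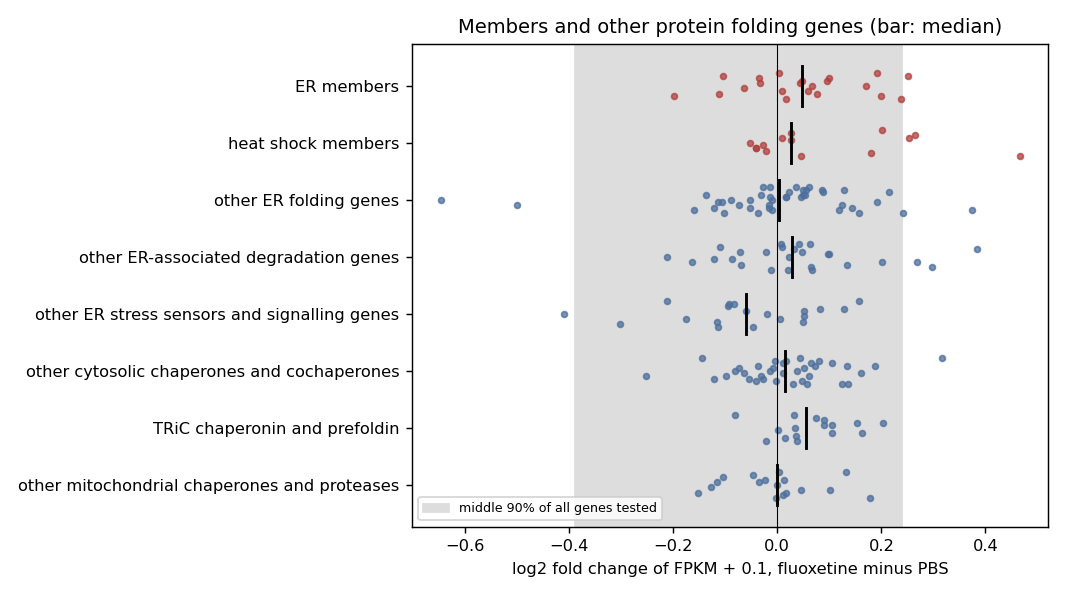
Log2 fold change of FPKM + 0.1, fluoxetine minus PBS, of the members (red) and of 6 further lists of protein folding genes (blue), 1 point per gene, with the list median as a black bar and the middle 90% of all genes tested in grey (-0.39 to 0.24). The medians run from -0.06 for the other ER stress sensors and signalling genes to 0.06 for TRiC and prefoldin (-0.0018 without fluoxetine replicate 1), and most points lie inside the grey band.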

How the data were processed

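RNA of LASCPC-01 cells was sequenced in 2 PBS and 2 fluoxetine libraries, grouped by their treatment labels. The authors deposited FPKM for 16376 genes, made from fragment numbers, gene length and library depth. The submitters' processing notes name fastp, HISAT2, HTSeq and GRCh38, without versions. The annotation and the strand setting are not given in the sources used here. A stranded TruSeq mRNA kit and paired-end reads are given in the labels.

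FPKM are not counts, so limma 3.58.1 in R 4.3.3 (lmFit, eBayes with a variance trend) was run on log2(FPKM + 0.1). Genes averaging under 0.1 FPKM were left out, and p-values were adjusted by Benjamini-Hochberg. This scale understates fold changes of low genes. Read numbers were solved as the smallest whole numbers that gave the FPKM of a gene in all libraries, for 16060 of 16080 genes above 0, and the true numbers can be multiples of them. The depth was the value shared by 93 genes at their GENCODE 29 exon lengths. The limma fit and the solving of read numbers at a given depth were run on simulated data, and the estimate of the depth was not. The tables and figures were made in Python 3.11.15.

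The members and the further gene lists were chosen with earlier results of these data known. From each further list, genes past an adjusted p of 0.05 were to be named, or otherwise the 1 or 2 genes with the smallest p without overlap between groups. Alternatives were 2 other pseudocounts, other filters, TPM, quantile normalization, median centring, other variance models, the replicate block, limma voom on the solved reads and each library left out in turn. Removal of the length trend by lowess was added after seeing the data. Promoter sequences are from RefSeq (GRCh38.p14), and gene models from GENCODE 29. The value of 1 item is not reported here.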

Additional observations from a re-analysis of the deposited data

How the results depend on the processing

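Under all 16 alternatives 0 members passed the adjusted test (smallest adjusted p = 0.12 from limma), and HSPA5, SDF2L1, CRELD2, MANF, DNAJA1, DNAJB1, HSPA1A and HSPA1B kept a positive log2 fold change. Of 560 recomputed member values 46 turned in sign, in 18 members. HSPA1A, with few reads, ranged from 0.29 to 0.56. Over the whole table, 30 genes passed, against 0 with no filter and 0 without the variance trend (1175 and 933 genes, respectively, had an unadjusted p under 0.05, against 1078 in the analysis reported), 16 under quantile normalization, 56 with voom, 64 with the replicate block and 2 to 12 with 1 library left out. The titles do not say what a shared replicate number stands for, and deviations of same-numbered libraries correlated at 0.0351 (0.101 for genes with a mean of at least 10 FPKM), so the numbers were not taken as pairs. The block called 0 members. The ER median was -0.0003 under TPM, 0.0018 under quantile normalization and 0.0167 to 0.0936 with 1 library left out, and the heat shock median was -0.0202 to 0.0915 with 1 library left out. Members above 0 numbered 15 under TPM. Members with an unadjusted p under 0.05 numbered 4 higher without the variance trend, 2 lower under quantile normalization, and 2 to 6 higher and 0 to 1 lower with 1 library left out. Members lower without overlap numbered 2 under median centring.

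Under TPM the log2 fold change was -0.0038 for DNAJB11, -0.0215 for HSP90AB1, -0.0003 for HSP90B1, -0.0028 for HSPD1, -0.0391 for HSPE1, -0.0216 for HSPH1, -0.0386 for HYOU1, -0.0437 for P4HB and -0.0319 for PDIA3. Under quantile normalization it was -0.0675 for HSP90AB1, -0.0775 for HSP90B1, -0.0604 for HSPD1, -0.0201 for HSPH1, -0.0485 for HYOU1, -0.0607 for P4HB and -0.0367 for PDIA3. Median centring gave 0.0042 for HSP90AA1. With the length trend removed it was 0.0469 for ATF6, -0.0084 for DNAJB11, -0.0171 for HSP90B1, -0.1229 for HSPE1 and -0.0206 for P4HB. With 1 library left out it ran from -0.127 to 0.0585 for ATF6, -0.101 to 0.0476 for BAG3, -0.0022 to 0.0901 for DNAJB11, -0.0478 to 0.4313 for DNAJB9, -0.0389 to 0.1903 for DNAJC3, -0.1038 to 0.0202 for HSF1, -0.0707 to 0.0265 for HSP90AA1, -0.0285 to 0.0811 for HSP90AB1, -0.0181 to 0.1131 for HSP90B1, -0.2246 to 0.1203 for HSPB1, -0.0119 to 0.102 for HSPD1, -0.2197 to 0.2369 for HSPE1, -0.0125 to 0.0648 for HSPH1, -0.0423 to 0.0608 for HYOU1, -0.0140 to 0.0223 for P4HB, -0.0617 to 0.0936 for PDIA3, -0.0033 to 0.1225 for PDIA6 and -0.2274 to 0.0041 for SEL1L. The cause was not tested.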
